A study of Mus musculus with 79 samples.

Results

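Clones E3 and H12 are mouse embryonic stem cell clones with the same labelled genotype, E14;HoxTransEdel, in which an element the labels call HoxTransE has been deleted. Nuclear RNA of both clones was sequenced after 24, 48 and 74 h in 1 uM retinoic acid (RA), a vitamin A derivative that makes these cells differentiate. The 12 libraries were chosen by their clone and time labels alone, 6 of E3 and 6 of H12, from 79 in the series, and no measured value entered the choice. Each clone has 2 libraries at each time. Further libraries of the same clones at 0, 2, 4 and 6 h of RA (8 of each clone) and 6 libraries of the wild-type clone G4 at 24, 48 and 74 h are set beside them where stated. The cells grew on serum with leukaemia inhibitory factor (LIF), and the labels do not say whether LIF stayed during RA. SG4 cells, a Drosophila line, had been spiked into the samples as a reference. E3 and H12 are each 1 clone, so anything else that differs between E3 and H12 cannot be told apart from their lineage behaviour. Nothing states that the libraries of a clone and time came from separate cultures, so the p-values measure the spread between libraries, which may be technical. The position of the deleted element is not given in the sources used here, and the deletion was not checked.

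RA binds nuclear receptors that switch on Hox genes and other patterning genes, and mouse embryonic stem cells treated with it form neural cells, extra-embryonic endoderm or mesoderm-like cells depending on conditions. Extra-embryonic endoderm comes in a visceral form, which takes up and secretes proteins, and a parietal form, which lays down a thick basement membrane of laminin and type IV collagen. GATA4 and GATA6 are the zinc finger transcription factors at the head of this lineage, and they bind the DNA word GATA flanked by A or T on one side and A or G on the other. Mesothelium is the epithelium that lines the body cavities and covers the internal organs.

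The promoters of 4 endoderm genes that were lower in E3 than in H12 are shown because GATA factors were themselves lower in E3; each runs 5′ to 3′ along the gene from 250 bases before the start site. They are RefSeq sequences of build GRCm38.p6, and capitals mark a match on either strand to AGATAA, to its variant ending in G (AGATAG), or to the same words when they begin with T, which are TGATAA and then, ending in G, TGATAG.
Hnf4a promoter, chr2:163506607-163506906, plus strand: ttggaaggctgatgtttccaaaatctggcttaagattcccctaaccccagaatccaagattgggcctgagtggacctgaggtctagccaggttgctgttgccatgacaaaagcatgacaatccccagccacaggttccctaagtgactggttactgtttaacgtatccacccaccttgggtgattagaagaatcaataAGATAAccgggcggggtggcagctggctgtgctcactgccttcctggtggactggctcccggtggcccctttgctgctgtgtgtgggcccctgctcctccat
Dpp4 promoter, chr2:62412182-62412481, minus strand: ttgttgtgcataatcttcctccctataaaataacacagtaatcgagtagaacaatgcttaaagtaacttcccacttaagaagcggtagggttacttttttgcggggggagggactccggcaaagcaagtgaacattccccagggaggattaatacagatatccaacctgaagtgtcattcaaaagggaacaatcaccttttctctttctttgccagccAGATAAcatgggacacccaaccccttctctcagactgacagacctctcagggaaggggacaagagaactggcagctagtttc
Cubn promoter, chr2:13491827-13492126, minus strand: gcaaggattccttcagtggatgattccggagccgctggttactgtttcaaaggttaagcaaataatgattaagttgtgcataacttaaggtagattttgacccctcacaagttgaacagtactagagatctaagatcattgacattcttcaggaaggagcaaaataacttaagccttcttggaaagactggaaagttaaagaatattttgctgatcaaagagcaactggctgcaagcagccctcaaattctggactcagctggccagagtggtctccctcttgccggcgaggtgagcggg
Afp promoter, chr5:90490464-90490763, plus strand: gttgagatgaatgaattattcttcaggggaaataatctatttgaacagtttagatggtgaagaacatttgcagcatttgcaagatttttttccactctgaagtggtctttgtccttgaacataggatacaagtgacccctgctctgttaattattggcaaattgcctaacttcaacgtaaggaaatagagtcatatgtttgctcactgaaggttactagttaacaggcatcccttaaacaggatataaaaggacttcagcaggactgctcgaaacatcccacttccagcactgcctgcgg
Hnf4a, a nuclear receptor of endoderm, and Dpp4, a membrane protease, each have 1 match, which begins 52 and 32 bases before the start site. Cubn, an endocytic receptor, and Afp, the fetal serum protein alpha-fetoprotein, have none in this window, and neither does the second Hnf4a start. A match stood in 3 of the 10 endoderm-list genes that were lower in E3 and have a promoter in the table (30%). It stood in 5 of the 36 tested genes of the endoderm lists (13.9%), in 2498 of 11558 tested genes of any kind (21.6%) and in 9778 of 32851 promoters in all (29.8%). The matches describe letters in this window only.

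Between 5057683 and 10114592 reads per library fell in genes. Reads were counted over the whole transcript, introns included, and levels are given as CPM, edgeR's depth-scaled read counts after TMM scaling. Over the 3 times together, with time as a block, 672 genes were higher in E3 than in H12 (4.39% of the 15297 tested) and 968 were lower (6.33%) at an adjusted p under 0.05 in edgeR's quasi-likelihood test. Of these, 208 and 463 differed by at least 2-fold. Log2 fold changes are E3 over H12, ± an approximate standard error (SE), and their median over all genes tested was 0.01. Each fit over the 3 times was repeated 12 times, leaving out 1 library each time. Where a gene is named as called over the 3 times, a loss of that call in such fits is stated. In 121 genes every E3 library lay above every H12 library (0.791% of those tested), and in 148 every E3 library lay below (0.968%). At single times, with 2 libraries against 2, E3 had 575 higher and 428 lower genes at 24 h (6.56% of those tested), 478 and 567 at 48 h (6.83%), and 237 and 421 at 74 h (4.3%). Replicate 2 of E3 at 48 h stood apart from replicate 1, with a mean chi-square of 32.6 per gene between them, against 17.02 in H12 at 48 h and 3.46 to 13.7 in the other pairs of the clones. Leaving it out gave 3684 calls at 48 h, and leaving out replicate 1 instead gave 294, against 1045 with both. The stem cell factor Pou5f1 had 66.1 and 96.2 CPM in E3 and 97.4 and 118 CPM in H12 at 24 h, and 3.12 and 5.6 CPM in E3 and 24.7 and 14.5 CPM in H12 at 74 h.

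Transcription factors of extra-embryonic endoderm were lower in E3 than in H12. Of 11 tested, 7 were lower in E3 than in H12 and none higher, with a median log2 fold change of -1.40. The background was 6.33% of genes lower and 4.39% higher. The lower genes include Gata4, Gata6, Sox7, Sox17, Hnf4a and Foxq1. Gata4 (chromosome 14, 63198914 to 63245271, build mm10) had 8.47 and 7.52 CPM at 24 h, 6.03 and 10.3 at 48 h and 19.2 and 21.7 at 74 h in E3, against 11.6 and 14.4 CPM at 24 h, 41.4 and 47.3 at 48 h and 130.4 and 134 at 74 h in H12. H12 climbed with each time, and the clones overlapped only where E3 at 74 h exceeded H12 at 24 h (log2 fold change -2.02 ± 0.27, edgeR adjusted p = 0.000362). In bulk RNA, fewer endoderm cells and less of this RNA per cell cannot be told apart, here and for every list below.

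Sox7, an endoderm Sox factor (chromosome 14, 63943706 to 63950732), had 0.988 and 1.28 CPM at 24 h, 1.59 and 1.87 at 48 h and 1.09 and 1.31 at 74 h in E3, against 2.08 and 1.87 CPM at 24 h, 8.06 and 8.15 at 48 h and 16 and 16.8 at 74 h in H12. It stayed under 2 CPM in E3 throughout, and the libraries of the clones did not overlap, though the highest of E3, 1.867 CPM, lay barely under the lowest of H12, 1.869 CPM (log2 fold change -2.45 ± 0.34, edgeR adjusted p = 0.000499). Gata6 had 8.05 and 8.23 CPM at 24 h, 25.1 and 33.6 at 48 h and 37.4 and 45.4 at 74 h in E3, against 39.3 and 31.8 CPM at 24 h, 50.6 and 50.4 at 48 h and 114 and 105 at 74 h in H12 (log2 fold change -1.40 ± 0.18, edgeR adjusted p = 0.00029). Its difference was already called at 24 h, with a log2 fold change of -2.13 ± 0.22. Of the 11 factors 2 were lower at 24 h, 4 at 48 h and 7 at 74 h (background 2.8%, 3.71% and 2.75% of genes). Without 1 library these counts were 1 to 3 at 24 h, 2 to 6 at 48 h and 6 to 8 at 74 h; the 1 is without E3 at 24 h replicate 2, the 2 without E3 at 48 h replicate 1 and the 6 at 48 h without E3 at 48 h replicate 2. Hnf4a ranged over 0.117 to 0.851 CPM in E3, against 0.53 to 3.41 CPM in H12. The forkhead gene Foxq1 had 0.624 and 3.1 CPM in E3 and 24.4 and 24 CPM in H12 at 74 h, and its call over the 3 times was lost without E3 at 74 h replicate 2 (edgeR adjusted p = 0.0625). Foxa2, a forkhead factor shared by embryonic and extra-embryonic endoderm, was not called, at a log2 fold change of 0.33 ± 0.30. Gata6, Sox17 and Foxa2 are named here after their values were seen. Summed over the list, E3 had 43.5 and 41.9 CPM at 24 h, 67.3 and 93 at 48 h and 90.0 and 115 at 74 h. H12 had 101 and 94.6, 159 and 171 and 382 and 376 CPM at the same times, and G4 47 to 93.9 CPM over all 6 libraries. Leaving out single libraries left 6 or 7 members lower over the 3 times together.

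**Figure D1:**
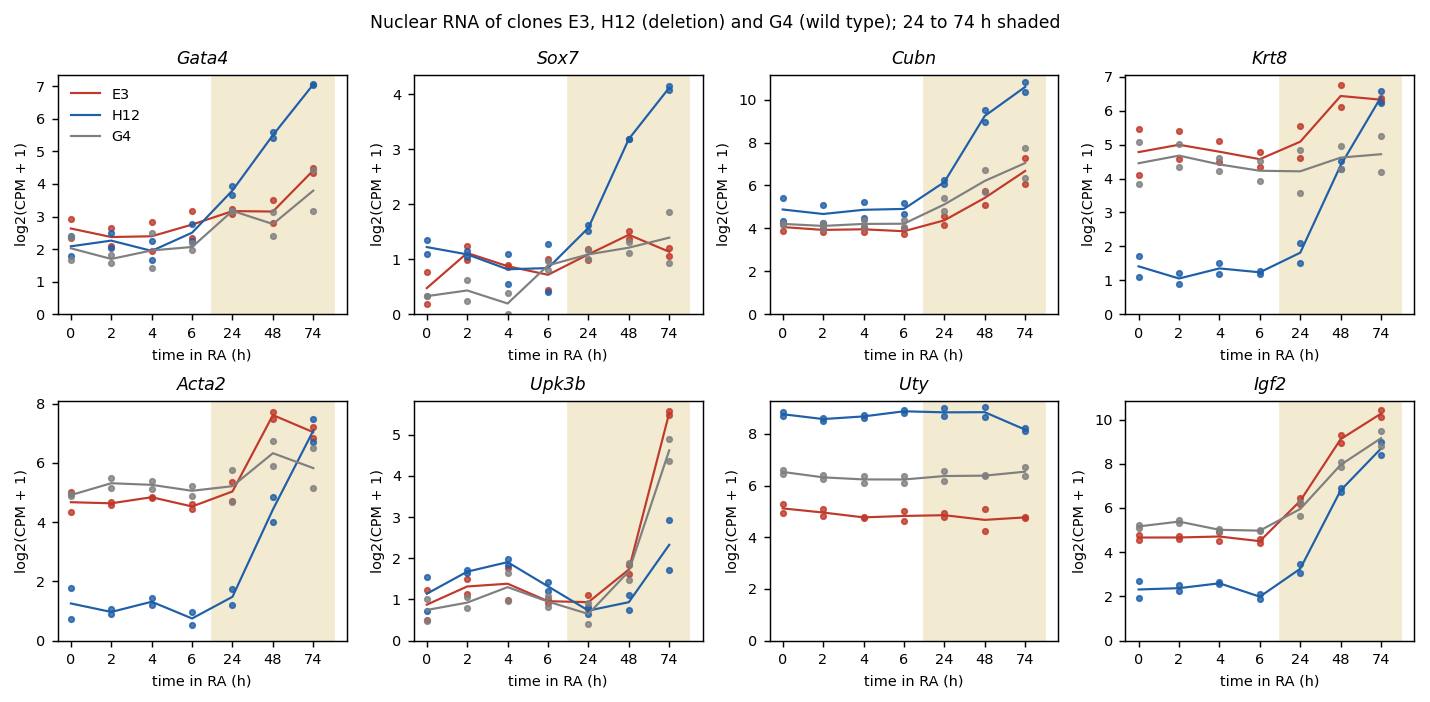
Levels of 8 genes, log2(CPM + 1) on each vertical axis, against hours of RA; dots are libraries, lines join the mean of 2 libraries, and the shaded span is 24 to 74 h (E3 red, H12 blue, G4 grey). Gata4, Sox7 and Cubn were highest in H12 at 74 h, Krt8 and Acta2 were high in E3 first and met H12 at 74 h, and Uty kept apart from 0 h on.

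Visceral endoderm genes for uptake and secretion were lower in E3 as well. Of 15 tested of 19 listed, 5 were lower in E3 and none higher, with a median log2 fold change of -0.85. Without 1 library 3 to 6 were lower, the 3 without E3 at 74 h replicate 2. The background over the 3 times was 6.33% of genes lower. Cubn (chromosome 2, 13276338 to 13491876) had 17.1 and 22.8 CPM at 24 h, 33.2 and 52.7 at 48 h and 65.7 and 156 at 74 h in E3, against 66.2 and 75 CPM at 24 h, 736 and 494 at 48 h and 1802 and 1323 at 74 h in H12 (log2 fold change -3.21 ± 0.35, edgeR adjusted p = 7.45e-05). The clones overlapped only between E3 at 74 h and H12 at 24 h. Dab2, an adaptor for endocytosis, was lower in E3 by 1.00 on the log2 scale, and its SE was 0.25. That call was lost in 3 of the 12 fits without 1 library (edgeR adjusted p up to 0.0816). Apom, an apolipoprotein, differed by -1.55 ± 0.40, and its call was lost without H12 at 48 h replicate 2 (edgeR adjusted p = 0.0544). Dpp4 differed by -1.26 ± 0.32, a call lost in 3 of the 12 fits that leave out 1 library (edgeR adjusted p up to 0.106). Afp was barely detected, at most 0.357 CPM in E3 and 2.48 and 1.85 CPM in H12 at 74 h. At 74 h alone, 10 of the 15 were lower, against 2.75% of all genes tested at that time. Leaving out E3 at 74 h replicate 1 brought that count to 3, and the other single libraries left up to 10.

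Basement membrane and parietal endoderm genes differed mainly at the last time. Over the 3 times, 2 of 17 were lower in E3 (11.8%, against 6.33% of all genes tested). The laminin alpha-5 chain gene Lama5 was the 1 higher (5.88%, against 4.39%). Without 1 library 2 or 3 were lower and 0 to 2 higher. The Lama5 call was lost in 10 of the 12 such fits (edgeR adjusted p up to 0.155). At 74 h 13 of 17 were lower, with a median log2 fold change of -1.52, against medians of 0.51 at 24 h and 0.09 at 48 h. At 24 h 4 were higher (Lama5, Lamb1, Plat and Fst, against 3.76% of all genes) and 1 lower. Without E3 at 24 h replicate 2, 1 was higher, other single libraries left up to 7, and without E3 at 24 h replicate 1 none was lower. At 74 h Lama1, the laminin alpha-1 chain, had 635 and 800.0 CPM in E3 and 6716 and 7238 CPM in H12 (log2 fold change -3.28 ± 0.28, edgeR adjusted p = 4.85e-06). Col4a1, the type IV collagen alpha-1 chain, had 613 and 754 CPM in E3 and 5067 and 6242 CPM in H12 at 74 h (log2 fold change -3.05 ± 0.34, edgeR adjusted p = 6.79e-05). At 24 h the same gene had 163 and 181 CPM in E3 and 112 and 150.5 CPM in H12. Lamb1, Lamc1 and Col4a2 had log2 fold changes of -2.34, -2.09 and -2.61 at 74 h, and Sparc, a matrix-binding glycoprotein, -1.63. These 6 genes are named after their values were seen. Without E3 at 74 h replicate 1, 8 of the 17 were called lower at 74 h, and without other single libraries up to 14. Srgn, the proteoglycan serglycin, was lower over all 3 times (log2 fold change -2.58 ± 0.38, edgeR adjusted p = 0.000773), as was Pth1r, the parathyroid hormone receptor made by parietal endoderm (log2 fold change -1.01 ± 0.16, edgeR adjusted p = 0.00144). The change of the difference between 24 and 74 h was called in 13 of the 17, downward in each (background 2.11% of genes).

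Pdgfra, the PDGF receptor that marks early endoderm and also mesenchyme (chromosome 5, 75152291 to 75198204), had 7.62 and 11.6 CPM at 24 h, 29.7 and 21 at 48 h and 42.6 and 54.1 at 74 h in E3, against 20.6 and 23.7 CPM at 24 h, 84.8 and 74.1 at 48 h and 336 and 303 at 74 h in H12 (log2 fold change -1.91 ± 0.22, edgeR adjusted p = 0.000128). Of the 9 tested genes in its list, Dkk1, a secreted Wnt inhibitor, was also lower (-0.98 ± 0.16) and the chemokine receptor gene Cxcr4 higher (0.77 ± 0.22). The Cxcr4 call was lost in 7 of the 12 fits without 1 library (edgeR adjusted p up to 0.105).

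Genes of simple epithelium were higher in E3, and the difference was large at 24 and 48 h. Of 11 tested, 8 were higher in E3 than in H12 over the 3 times and none lower, with a median log2 fold change of 1.59. The background over the 3 times was 4.39% of genes higher. At 24 and 48 h 9 were higher each time, and at 74 h 3 (background 3.76%, 3.12% and 1.55% of genes higher). Without 1 library they were 6 to 11, 8 to 10 and 1 to 3, the 6 without H12 at 24 h replicate 1 and the 1 without E3 at 74 h replicate 1. Krt8, which with Krt18 makes the first keratin filaments of the embryo (chromosome 15, 101996711 to 102004342), had 46.3 and 23.4 CPM at 24 h, 108 and 67.4 at 48 h and 81.9 and 76.6 at 74 h in E3, against 3.31 and 1.87 CPM at 24 h, 18.4 and 21.7 at 48 h and 94.5 and 74.5 at 74 h in H12 (log2 fold change 1.70 ± 0.47, edgeR adjusted p = 0.0318). At 24 and 48 h the E3 libraries stood above those of H12 of the same time, and at 74 h the clones overlapped. The call over the 3 times was lost in 7 of the 12 fits without 1 library (edgeR adjusted p up to 0.163). Krt18, named after its values were seen, had a log2 fold change of 1.65 ± 0.42, Krt19 1.59 ± 0.40 and the tight junction gene Cldn7 1.74 ± 0.41. The Krt18, Krt19 and Cldn7 calls were lost in 5 of the 12, 4 of the 12 and 2 of the 12 such fits (edgeR adjusted p up to 0.137, 0.0851 and 0.0696).

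Krt7, a keratin of simple and trophoblast epithelium, differed at all 3 times: 4.38 and 3.12 CPM at 24 h, 16 and 16.5 at 48 h and 22.8 and 18.8 at 74 h in E3, against 1.04 and 1.31 CPM at 24 h, 1.49 and 3.4 at 48 h and 6.98 and 6.4 at 74 h in H12 (log2 fold change 2.05 ± 0.24, edgeR adjusted p = 0.000112). Epcam, an epithelial adhesion molecule, had 175 and 184 CPM at 24 h, 97.6 and 76.2 at 48 h and 47.3 and 51.2 at 74 h in E3, against 39.1 and 44.7 CPM at 24 h, 20.9 and 17.8 at 48 h and 24.8 and 15.8 at 74 h in H12, with no overlap (log2 fold change 1.86 ± 0.17, edgeR adjusted p = 1.31e-05). Epcam lies in a stretch of chromosome 17 where most genes were higher in E3, described below. Prss8, a membrane serine protease of epithelia, and Frem2, a basement membrane protein, were higher by 1.40 ± 0.23 and 1.75 ± 0.19. The epithelial transcription factor Grhl2 was higher by 1.12 ± 0.15. Cdh1, the epithelial cadherin, named after its values were seen, was not called (log2 fold change 0.49 ± 0.16, edgeR adjusted p = 0.0672). Cdh3, another classical cadherin, was (1.61 ± 0.23). Leaving out single libraries gave 4 to 10 members of the epithelial list higher over the 3 times, the 4 without E3 at 48 h replicate 1.

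In the heart and smooth muscle list, smooth muscle genes were higher in E3 at 24 and 48 h. Of 15 tested genes, 4 were higher in E3 over the 3 times and none lower (background 4.39% and 6.33% of genes). At 24 and 48 h 7 were higher each time (background 3.76% and 3.12% of genes). At 74 h none was called by edgeR (2 at an unadjusted p under 0.05, and 1, lower, by DESeq2). Acta2, smooth muscle actin, had 39.7 and 25.5 CPM at 24 h, 213 and 179.9 at 48 h and 115 and 149 at 74 h in E3, against 2.36 and 1.31 CPM at 24 h, 27.8 and 15.1 at 48 h and 177 and 104 at 74 h in H12 (log2 fold change 2.19 ± 0.57, edgeR adjusted p = 0.0251). E3 was above H12 at 24 and 48 h, and the 74 h libraries overlapped. Tagln, an actin-binding protein of smooth muscle, differed by 3.46 at 24 h and -0.28 at 74 h, and Cnn1, calponin, by 2.48 and -0.21 (log2 fold changes). Over the 3 times the calls of Acta2, Tagln, Cnn1 and Tpm2 were lost in 5 of the 12, 7 of the 12, 9 of the 12 and 2 of the 12 fits without 1 library. The highest edgeR adjusted p in these fits was 0.126 for Acta2, 0.165 for Tagln, 0.131 for Cnn1 and 0.0687 for Tpm2. The count of 4 became 0 without H12 at 24 h replicate 1, and 1 and 2 without E3 at 48 h replicates 1 and 2. At 24 h alone 4 to 7 members were called without 1 library, the 4 without E3 at 24 h replicate 1. At 48 h 4 to 9 were, the 4 without H12 at 48 h replicate 1. The cardiac regulators Nkx2-5 and Tbx20, named after their values were seen, were not called; their means over the 6 libraries were 1.43 ± 0.836 and 4.5 ± 1.83 CPM in E3, against 1.57 ± 1.45 and 2.89 ± 1.64 CPM in H12 (SD, n = 6 libraries each).

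Mesothelial genes were higher in E3 at 74 h. Of 9 tested, 3 were higher in E3 over the 3 times and none lower, with a median log2 fold change of 1.05. At 74 h 5 were higher (3 to 5 without 1 library). The background was 4.39% of genes higher over the 3 times and 1.55% at 74 h. Upk3b, a membrane protein of mesothelium (chromosome 5, 136038496 to 136044993), had 0.706 and 1.14 CPM at 24 h, 2.06 and 2.57 at 48 h and 44 and 46.3 at 74 h in E3, against 0.756 and 0.561 CPM at 24 h, 1.17 and 0.679 at 48 h and 6.67 and 2.28 at 74 h in H12 (log2 fold change 2.36 ± 0.43, edgeR adjusted p = 0.00338). Wt1, a zinc finger transcription factor of mesothelium and kidney, had 94.2 and 66.1 CPM at 24 h, 63.5 and 67.8 at 48 h and 138 and 128 at 74 h in E3, against 54.6 and 54 CPM at 24 h, 33.3 and 35.2 at 48 h and 54.2 and 31.3 at 74 h in H12, with no overlap (log2 fold change 1.05 ± 0.18, edgeR adjusted p = 0.00218). The transcription factor gene Bnc1 had 0.423 and 0.568 CPM in E3 and 0.567 and 0.935 CPM in H12 at 24 h, and 12.5 and 14.3 CPM in E3 and 2.02 and 1.28 CPM in H12 at 74 h. Its difference was called at 74 h (log2 fold change 3.02 ± 0.34, edgeR adjusted p = 6.60e-05) but not over the 3 times (edgeR adjusted p = 0.0609). Aldh1a2, which makes RA in embryonic mesoderm and mesothelium, had 2.26 and 2.7 CPM in E3 and 3.59 and 3.18 CPM in H12 at 24 h. At 74 h it had 61.6 and 51.8 CPM in E3 and 10.4 and 6.26 CPM in H12 (log2 fold change 2.77 ± 0.28, edgeR adjusted p = 2.56e-05). Msln, mesothelin, named after its values were seen, was not called, with 1.89 ± 1.24 CPM in E3 and 1.47 ± 0.792 CPM in H12 (SD, n = 6 libraries each). Krt19 stands in this list and in the epithelial one.

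**Figure D2:**
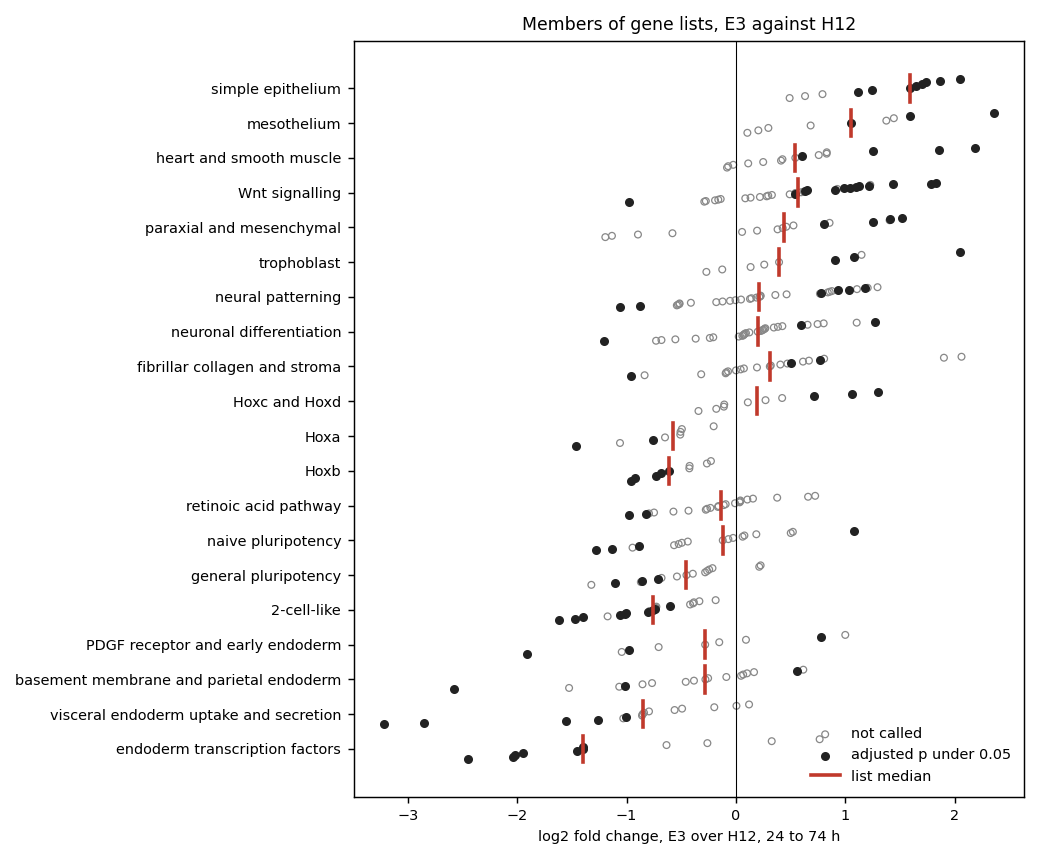
Log2 fold change, E3 over H12, of the tested members of 20 gene lists over 24, 48 and 74 h; each point is a gene, filled points have an adjusted p under 0.05, and the red bar is the list median. Endoderm transcription factors centre at -1.40 and simple epithelium at 1.59, with naive pluripotency at -0.12 between them.

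In the Wnt signalling list 12 of 30 tested genes were higher in E3 and 1, Dkk1, lower, with a median log2 fold change of 0.57. The background for this list and the next was 4.39% of genes higher and 6.33% lower. Without 1 library 8 to 12 were higher, the 8 without E3 at 24 h replicate 2, and with a replicate block 7 were. Wnt6 had 1.41 and 1.99 CPM at 24 h, 42 and 22.3 at 48 h and 50.7 and 48.2 at 74 h in E3, against 1.23 and 2.06 CPM at 24 h, 3.08 and 1.63 at 48 h and 25.3 and 21.6 at 74 h in H12 (log2 fold change 1.83 ± 0.44, edgeR adjusted p = 0.0156). That call was lost without H12 at 48 h replicate 1 (edgeR adjusted p = 0.0581). Wnt7a differed by 1.78 ± 0.30 and Wnt3, a ligand of the primitive streak, by 1.43 ± 0.20. Wnt7b differed by 1.21 ± 0.35, a call lost in 8 of the 12 fits without 1 library (edgeR adjusted p up to 0.131). The Frizzled receptors Fzd1, Fzd2 and Fzd10 were higher by 0.90, 1.09 and 0.64, and the Wnt target Axin2 by 0.54, all named after their values were seen. The calls of Fzd1, Fzd10 and Axin2 were lost in 8 of the 12, 2 of the 12 and 1 of the 12 fits without 1 library (edgeR adjusted p up to 0.117, 0.0659 and 0.0529). In the Hedgehog and Notch list 5 of 18 were higher in E3. Among them were the Hedgehog receptor Ptch1 (0.93 ± 0.16), its transcription factor Gli1 (1.06 ± 0.20) and Lfng, a Notch-modifying enzyme (1.17 ± 0.32). Ihh, a Hedgehog ligand made by visceral endoderm, was lower (-1.88 ± 0.52). The Lfng and Ihh calls were lost in 6 of the 12 and 5 of the 12 fits without 1 library (edgeR adjusted p up to 0.157 and 0.125).

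Of 22 FGF pathway genes 4 were lower in E3 and none higher, against a background of 6.33% of genes lower and 4.39% higher. The 4 were the ligand Fgf10 (-1.06 ± 0.31), the feedback inhibitor Spry4 (-1.57 ± 0.34) and the ETS factors Etv4 (-0.98 ± 0.27) and Etv5 (-0.89 ± 0.25). All but Spry4 lost their call in 6 or 8 of the fits without 1 library, and the count ranged from 1 to 4. Of 21 BMP and TGF-beta genes 3 were higher in E3 and 2 lower (1 to 3 and 1 or 2 without 1 library), beside the same background. The ligand Bmp5 was higher (1.06 ± 0.27) and Bmper, an extracellular BMP regulator, lower (-0.97 ± 0.29), and both calls were lost without some libraries (4 of the 12 and 9 of the 12). Bmp7 and Tgfb3 were higher by 0.60 and 0.93, with calls lost in 8 of the 12 and 7 of the 12. The highest edgeR adjusted p was 0.128, for Bmper.

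Mesenchymal and paraxial mesoderm genes had 4 of 16 higher and none lower (2 to 5 without 1 library). Foxc1, a forkhead factor of mesenchyme, was higher by 1.52 ± 0.28, and Tbx15, a T-box factor of limb and trunk mesenchyme, by 0.81 ± 0.19. Osr1, a zinc finger factor of intermediate mesoderm, was higher by 1.41 ± 0.36. Its call was lost without H12 at 48 h replicate 2 (edgeR adjusted p = 0.0541). Prrx1, a homeobox factor of limb mesenchyme, had 1.25 ± 0.38, with the call lost in 9 of the 12 such fits (edgeR adjusted p up to 0.124). Of 21 fibrillar collagen and stroma genes 2 were higher in E3 and 1 lower (0 to 5 and 1 to 3 without 1 library). The background for both lists was 4.39% of genes higher and 6.33% lower. Thy1, a surface glycoprotein, was the one lower (-0.96 ± 0.22). Pdgfrb, the PDGF receptor of pericytes and mesenchyme, and the intermediate filament gene Vim were higher by 0.77 ± 0.19 and 0.50 ± 0.14. Both calls were lost without some libraries, in 2 of the 12 and 6 of the 12 (edgeR adjusted p up to 0.103).

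Blood and endothelial genes had 4 of 9 lower and 1 higher (1 to 5 lower without 1 library). The background for this list and the 2 below was 6.33% of genes lower and 4.39% higher. Runx1, a transcription factor of blood stem cells, had 13 and 10.2 CPM at 24 h, 4.76 and 7.35 at 48 h and 5.3 and 5.72 at 74 h in E3, against 16.4 and 17.9 CPM at 24 h, 29.6 and 27.6 at 48 h and 43.3 and 44.1 at 74 h in H12, with no overlap (log2 fold change -1.90 ± 0.31, edgeR adjusted p = 0.00147). Gata2 was higher, with 3.81 to 16.4 CPM in E3 and 1.04 to 5.28 CPM in H12 (log2 fold change 1.45 ± 0.21, edgeR adjusted p = 0.000561). Lmo2, a blood transcription cofactor, and the endothelial cadherin Cdh5 had log2 fold changes of -1.16 and -1.40, with calls lost in 8 of the 12 and 6 of the 12 fits without 1 library (edgeR adjusted p up to 0.0903 and 0.0733). Trophoblast genes had 3 of 9 higher: Krt7, Tfap2c (1.08 ± 0.20) and Gata3 (0.91 ± 0.24, a call lost in 6 of the 12, edgeR adjusted p up to 0.0704). Cdx2, a defining trophoblast factor named after its values were seen, was not called, with 1.89 ± 1.33 CPM in E3 and 0.804 ± 0.398 CPM in H12 (SD, n = 6 libraries each). Of 6 tested primitive streak genes 1 was higher, Wnt3.

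Neural lists had calls in both directions, against a background of 4.39% of genes higher and 6.33% lower. Of 31 neural patterning genes 4 were higher and 2 lower (2 to 8 higher without 1 library), with a median log2 fold change of 0.21. Nkx2-9, Zic1 and Pax3 had log2 fold changes of 1.18, 1.03 and 0.93, and Olig3, a dorsal neural tube factor, -1.06. The calls of Nkx2-9, Pax3 and Olig3 were lost in 8 of the 12, 7 of the 12 and 8 of the 12 fits without 1 library (edgeR adjusted p up to 0.112, 0.0948 and 0.108). Of 29 neuronal differentiation genes 2 were higher and 1, Ebf1, was lower (-1.20 ± 0.25). The 2 higher, Dcx and Elavl2, each lost their call in 9 such fits. In neural crest Foxd3 (-1.88 ± 0.42) and Mitf (-0.63 ± 0.15) were lower and Tfap2b higher (0.81 ± 0.23, lost in 10 of the 12 fits, edgeR adjusted p up to 0.107), of 11 tested.

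Hoxb genes, which pattern the hindbrain and trunk and give the deleted element its name, were lower in E3, with the largest median difference at 24 h. Of 9 tested, 5 were lower over the 3 times and none higher (4 or 5 lower without 1 library), with a median log2 fold change of -0.62. The background over the 3 times was 6.33% of genes lower. The medians were -0.93 at 24 h, -0.67 at 48 h and -0.26 at 74 h. Hoxb9 (chromosome 11, 96271330 to 96276593) had 8.05 and 8.8 CPM at 24 h, 9.36 and 13.8 at 48 h and 11.5 and 14.8 at 74 h in E3, against 14.9 and 14.8 CPM at 24 h, 24.7 and 29.6 at 48 h and 19.4 and 27.4 at 74 h in H12 (log2 fold change -0.96 ± 0.15, edgeR adjusted p = 0.00107). Hoxb8 differed by -0.92 ± 0.21, Hoxb6 by -0.73 ± 0.18, Hoxb5 by -0.69 ± 0.16 and Hoxb2 by -0.62 ± 0.14. The Hoxb6 call was lost in 3 of the 12 fits without 1 library (edgeR adjusted p up to 0.065). Hoxb1, an early direct RA target, had 26.3 and 35.9 CPM at 24 h, 27.3 and 34.7 at 48 h and 4.99 and 14.2 at 74 h in E3, against 29.5 and 45.4 CPM at 24 h, 42.8 and 53.3 at 48 h and 16.9 and 8.82 at 74 h in H12, and was not called (log2 fold change -0.43 ± 0.22, edgeR adjusted p = 0.266). Hoxb7, Hoxb4 and Hoxb3 were not called either, at -0.42 ± 0.27, -0.27 ± 0.21 and -0.23 ± 0.20.

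Hoxb4 and Hoxb3 changed their difference between 24 and 74 h, by 1.40 ± 0.35 and 1.35 ± 0.29 on the log2 scale. Hoxb4 had 16.9 and 18.3 CPM in E3 and 27.9 and 40.8 CPM in H12 at 24 h, and 36.6 and 39.2 CPM in E3 and 27 and 28.6 CPM in H12 at 74 h. At 24 h 5 of the 9 Hoxb genes were called lower (background 2.8%), and none without H12 at 24 h replicate 2. The neighbours of the cluster had 1 gene higher, Sp6 (0.75 ± 0.19), and 1 lower, B4galnt2 (-1.26 ± 0.29), of 22. Both counts were near the shares of all genes tested, 4.39% higher and 6.33% lower. The Sp6 call was lost in 3 of the 12 fits without 1 library (edgeR adjusted p up to 0.0624), and the antisense transcript Hoxb5os was not called (-0.27 ± 0.19). Of 8 tested Hoxa genes 2 were lower, Hoxa10 and Hoxa5 (-1.46 ± 0.39 and -0.76 ± 0.21), with calls lost in 6 of the 12 and 8 of the 12 fits (edgeR adjusted p up to 0.0935 and 0.1). Of 10 Hoxc and Hoxd genes 3 were higher: Hoxd4 (1.30 ± 0.16), Hoxd3 (1.06 ± 0.16) and Hoxc5 (0.71 ± 0.15). Neighbouring Hox transcripts share spans in part, so reads over shared introns count for more than one of them.

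Of 22 tested genes of the RA pathway, 2 were lower in E3 (9.09%, near the 6.33% of all genes tested) and none higher: Stra6, the membrane receptor for retinol-binding protein (log2 fold change -0.98 ± 0.14, edgeR adjusted p = 0.000658), and Rxra, a partner of the RA receptors (log2 fold change -0.82 ± 0.18, edgeR adjusted p = 0.0116). Cyp26a1, the enzyme that degrades RA, named after its values were seen, was not called over the 3 times (log2 fold change -0.57 ± 0.30, edgeR adjusted p = 0.258), and its log2 fold change at 74 h was -1.87 ± 0.27. Hox cofactors and caudal genes had no edgeR call in 11 (2 at an unadjusted p under 0.05, and none by DESeq2), and Meis3 stood at 0.32 ± 0.14.

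In the pluripotency lists some genes were called, against a background of 4.39% of genes higher and 6.33% lower. Klf4, Klf5 and Tbx3 of the naive list were lower (-0.89 ± 0.19, -1.13 ± 0.21 and -1.28 ± 0.22) and Sox15 higher (1.08 ± 0.28, lost in 6 of the 12 fits without 1 library, edgeR adjusted p up to 0.0659), of 17. Of 15 general pluripotency genes Dppa4, L1td1 and Rex2 were lower (-0.71 ± 0.14, -1.10 ± 0.31 and -0.86 ± 0.21), and the L1td1 call was lost in 6 of the 12 fits (edgeR adjusted p up to 0.127). Of 13 formative genes Grhl2 and Sox11 (0.85 ± 0.16) were higher. Genes of the 2-cell-like state, which a small share of stem cells enters, had 10 of 19 lower and none higher, with a median log2 fold change of -0.76 (5 to 12 lower without 1 library, the 5 without E3 at 48 h replicate 2). Tcstv3, Tdpoz4, Zfp352 and Usp17le differed by -1.39, -1.48, -1.62 and -1.06. The Zfp352 call was lost in 7 of the 12 fits and that of Tdpoz4 without E3 at 48 h replicate 2 (edgeR adjusted p up to 0.09 and 0.0548). Several of these genes have near-identical copies, and how reads were shared among copies is not stated. Germline genes had 2 of 11 lower, Sycp1 (-1.16 ± 0.24) and Tex11 (-0.68 ± 0.17), the Tex11 call being lost in 2 of the 12 fits (edgeR adjusted p up to 0.0556).

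Lists for the state of the cells are set beside a background of 4.39% of genes higher and 6.33% lower. Of 22 replication and mitosis genes 5 were higher in E3 (3 to 5 without 1 library). The D-type cyclins Ccnd1 and Ccnd2 differed most (0.91 ± 0.21 and 0.95 ± 0.22), with Top2a and Mcm6 at 0.41 and 0.37. The remaining gene, Pcna, lost its call in 11 of the 12 fits without 1 library (edgeR adjusted p up to 0.137). Of 16 p53 targets Perp, a desmosome protein, and Ccng1 were higher (1.17 ± 0.19 and 0.42 ± 0.12). Fosb was the 1 higher of 11 immediate early genes (1.27 ± 0.34) and Hk1 the 1 higher of 20 glycolysis genes (0.40 ± 0.11). The calls of Mcm6, Ccng1, Fosb and Hk1 were lost in 4 of the 12, 9 of the 12, 7 of the 12 and 8 of the 12 fits without 1 library (edgeR adjusted p up to 0.0899). None of 12 integrated stress response genes was called by edgeR (1 at an unadjusted p under 0.05, and none by DESeq2), and Trib3 stood at -0.44 ± 0.28. Of 8 DNA methylation genes Dnmt3l, a cofactor of the de novo methyltransferases, was lower (-1.18 ± 0.22).

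Genes of the Y chromosome were far lower in E3. All 8 tested genes of the list were lower in E3 than in H12, with a median log2 fold change of -3.88. All 8 were also lower at 0 to 6 h, with a median of -4.35. Uty, a histone demethylase relative (chromosome Y, 1097144 to 1245738), had 29.6 and 26.3 CPM at 24 h, 18.1 and 33 at 48 h and 26 and 26.4 at 74 h in E3, against 505 and 411 CPM at 24 h, 526 and 398 at 48 h and 299 and 273 at 74 h in H12 (log2 fold change -3.88 ± 0.17, edgeR adjusted p = 1.29e-08). G4 lay between, at 71.9 to 104 CPM. Ddx3y, an RNA helicase, had 4.88 to 7.38 CPM in E3 and 56.9 to 90.6 CPM in H12. Kdm5d, a histone demethylase, had 0 to 0.119 CPM in E3, against 4.5 to 7.37 CPM in H12. The zinc finger gene Zfy1 had 0.624 to 1.84 CPM in E3 and 42.8 to 116 CPM in H12, Zfy2 0 to 0.233 CPM in E3 and 0.284 to 3.21 CPM in H12, and Uba1y, a ubiquitin-activating enzyme, 0.142 to 0.988 CPM in E3 and 1.99 to 12.6 CPM in H12. Zfy1 and Zfy2 are close copies of each other, and several Y genes have an X-linked relative; how reads matching both were counted is not stated. Eif2s3y and Usp9y, named after their values were seen, had log2 fold changes of -1.40 ± 0.17 and -2.26 ± 0.22. Summed over the list, E3 had 49.5 to 87.4 CPM, H12 438 to 912 CPM and G4 116 to 148 CPM. On the X chromosome 27 genes were higher in E3 and 44 lower of 537 tested. These shares, 5.03% and 8.19%, were near the 4.39% and 6.33% of all genes tested. Xist was low in both clones, at 1.55 to 5.48 CPM in E3 and 5.97 to 15.1 CPM in H12 (log2 fold change -1.75 ± 0.23, edgeR adjusted p = 0.000267), and Tsix, transcribed across it on the other strand, differed by -0.74 ± 0.17. Whether reads were counted by strand is not stated, so these 2 cannot be told apart fully.

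Other differences followed chromosome position. Stretches were picked as runs of windows of 25 tested genes with a median log2 fold change of at least 0.5 in size at 24 to 74 h. Their counts and medians from those libraries therefore follow in part from the choice. Runs on chromosomes 1 and 4 with fewer windows passed the same limit, and called genes there were all lower in E3. On chromosome 17 from 74338987 to 94878321 (mm10), 58 of 80 tested genes were higher in E3 and 7 lower, with a median log2 fold change of 0.95. In 36 of them every E3 library lay above every H12 library. The median was 0.97 at 0 to 6 h, 0.06 for E3 over G4 and -0.88 for H12 over G4. Epcam, Ndufaf7, a complex I assembly factor (1.52 ± 0.15), Gemin6 (1.36 ± 0.26) and Cebpzos (1.33 ± 0.25) are 4 of the genes there. On chromosome 6 from 107529726 to 115808743, 27 of 52 genes were higher and 2 lower, with medians of 0.51 at 24 to 74 h and 0.53 at 0 to 6 h. Whether the clones differ in DNA copy number there was not tested, since no DNA was measured. Without the stretches on chromosomes 6, 12, 17 and 18 and without the Y chromosome, 1384 genes were called.

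**Figure D3:**
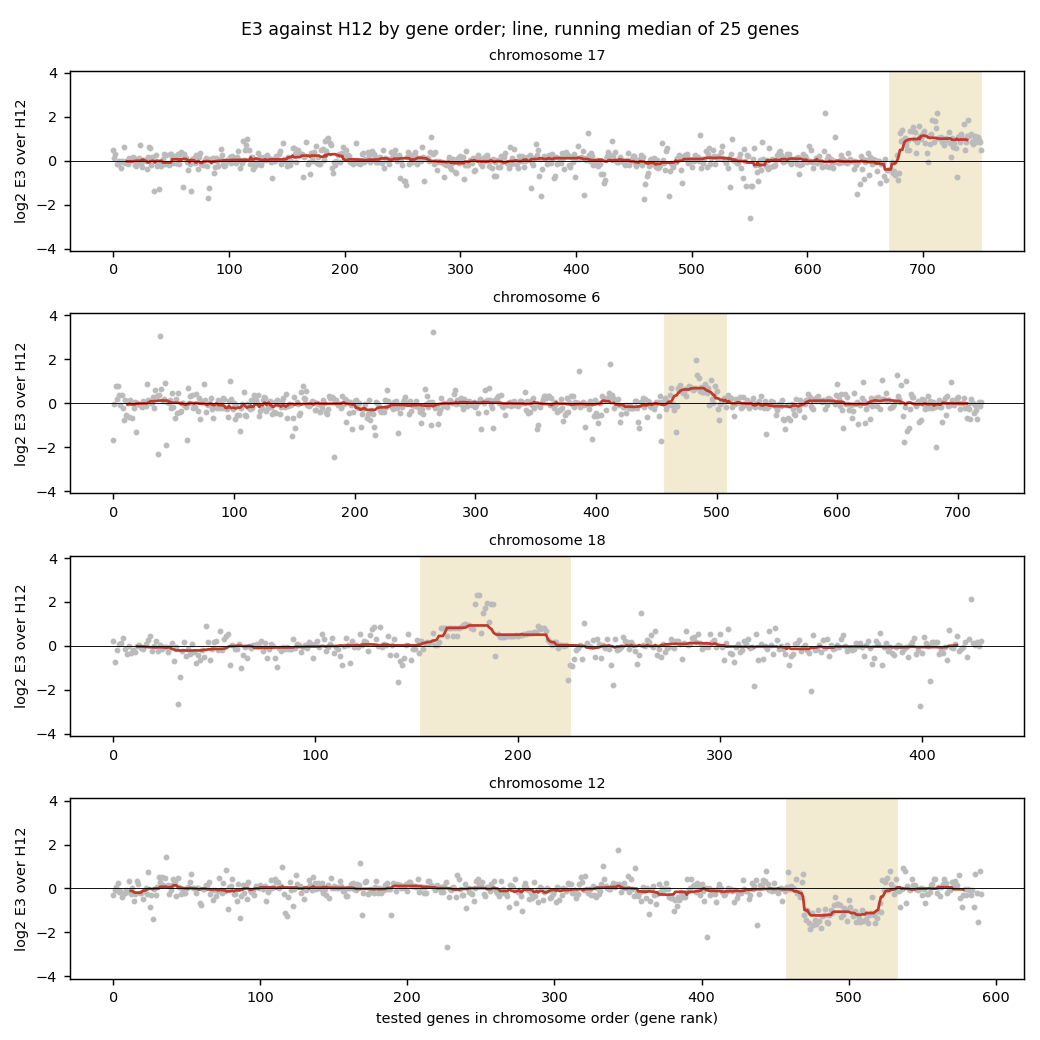
Log2 fold change, E3 over H12, of tested genes in order along chromosomes 17, 6, 18 and 12; the horizontal axis is gene rank, the line a running median of 25 genes, and the shading the stretch where that median passed 0.5 in size, with values beyond 4 drawn at the edge. Chromosomes 17, 6 and 18 each have a raised block and chromosome 12 a lowered one.

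Clustered protocadherins, cell-surface adhesion genes on chromosome 18, had 43 of 46 tested genes higher in E3 and none lower, with a median log2 fold change of 0.81. The background was 4.39% of genes higher and 6.33% lower. Pcdhb3 and Pcdhb2 were higher by 2.31 ± 0.30 and 1.89 ± 0.28. Against G4 at the same times the medians were -0.02 for E3 and -0.84 for H12. The alpha and gamma transcripts overlap along the genome, so their reads are shared. The 5 tested Xlr genes, X-linked lymphocyte-regulated genes with close copies, were lower, with a median of -3.58. Xlr3a, Xlr3b, Xlr3c and Xlr4a had log2 fold changes of -3.80, -3.18, -2.81 and -3.58, and Xlr3a had 0.156 to 1.42 CPM in E3 and 4.66 to 11.7 CPM in H12. The 6 tested Ugt1a transcripts, glucuronosyltransferases that share most of their span, were all lower, with a median of -2.28. These 3 groups were picked after earlier results were seen.

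Imprinted genes, expressed from a single parental copy, had 11 of 38 lower and 1 higher (9 to 11 lower without 1 library). The background was 6.33% of genes lower and 4.39% higher. Igf2 and H19, which lie side by side on chromosome 7 and are expressed from opposite parental copies, differed in opposite directions. Igf2, a fetal growth factor (chromosome 7, 142650768 to 142661035), had 71.7 and 86.8 CPM at 24 h, 629.8 and 485 at 48 h and 1109.9 and 1369 at 74 h in E3, against 7.28 and 9.91 CPM at 24 h, 117 and 103 at 48 h and 507 and 335 at 74 h in H12 (log2 fold change 2.32 ± 0.23, edgeR adjusted p = 4.21e-05). H19, a noncoding RNA (chromosome 7, 142575530 to 142578146), had 1.55 and 1.84 CPM at 24 h, 9.68 and 9.33 at 48 h and 14.5 and 23.8 at 74 h in E3, against 5.2 and 8.04 CPM at 24 h, 70.7 and 59 at 48 h and 303 and 349.8 at 74 h in H12 (log2 fold change -3.20 ± 0.29, edgeR adjusted p = 1.44e-05). For both genes the clones stood apart at each time, and levels climbed with time in both clones. Plagl1, a zinc finger factor, had 1.84 to 27.1 CPM in E3, 4.25 to 117 CPM in H12 and 28.5 to 543 CPM in G4, and Hymai, a noncoding RNA of the same locus, differed between E3 and H12 by -1.63 ± 0.28. In the Dlk1-Meg3 region of chromosome 12, chosen after earlier results were seen, 29 of 54 tested transcripts were lower in E3 and none higher, with a median of -1.20. On this chromosome 25 tested transcripts lie between 109712508 and 109749457. Where spans overlap, reads are shared, so the 54 are not separate results. The noncoding RNA Meg3 had 315 and 192 CPM at 24 h, 345 and 439.9 at 48 h and 621 and 554 at 74 h in E3, against 540.3 and 718 CPM at 24 h, 818 and 1311 at 48 h and 1134 and 1108 at 74 h in H12 (log2 fold change -1.23 ± 0.16, edgeR adjusted p = 0.000327). The protein-coding Dlk1, expressed from the other parental copy, was not called (log2 fold change 0.66 ± 0.37, edgeR adjusted p = 0.298). Meg3 and Dlk1 are named after their values were seen. The region's median was -0.48 at 0 to 6 h.

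Further genes with non-overlapping clones were higher in E3: Phf19, a Polycomb subunit (1.97 ± 0.20), Eya1, a transcription cofactor of kidney and ear (1.51 ± 0.19), Vgll3, a cofactor of TEAD factors (1.37 ± 0.16), the surface protein gene Cd109 (1.34 ± 0.21) and Fndc3c1 (1.58 ± 0.22). Lower were Fbp2, a gluconeogenic phosphatase (-3.58 ± 0.26), Efhc2 (-3.25 ± 0.21), Nxf3, a relative of RNA export factors (-3.07 ± 0.22), Nostrin, a regulator of nitric oxide synthase trafficking (-2.87 ± 0.23), 1700048O20Rik (-2.91 ± 0.20) and 1010001N08Rik (-2.64 ± 0.44). Efhc2 had 3.81 to 8.23 CPM in E3 and 28.9 to 83.1 CPM in H12. Nostrin had 1.11 to 2.45 CPM in E3 and 6.62 to 19.9 CPM in H12. These 11 genes were chosen among those with non-overlapping libraries, so their lack of overlap is not a separate result.

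The difference between the clones changed with time in RA. Between 24 and 74 h, E3 lost ground to H12 in 323 genes (2.11% of those tested) and gained in 68 (0.445%), which makes 2.56% together. Among genes simulated with a 2-fold change of this kind 13% were recovered, and with a 4-fold change 78.8%, so smaller changes of the difference would mostly be missed. The 5 largest losses were in Pga5, a pepsinogen (-6.70 ± 1.45), Clic5, a chloride channel relative (-5.01 ± 0.69), Prlr, the prolactin receptor (-4.75 ± 0.76), Mir6367, which lies inside Ahnak and shares its reads (-4.72 ± 0.98), and Dcn, the proteoglycan decorin (-4.57 ± 0.99). Dcn had 4.99 and 5.12 CPM in E3 and 13 and 7.96 CPM in H12 at 74 h. Pga5 had 0.156 and 1.19 CPM in E3 and 17.5 and 15.6 CPM in H12 at 74 h. The 5 largest gains included Bnc1 (3.51 ± 0.70), Robo3, an axon guidance receptor (3.33 ± 0.73), Aldh1a2 (3.23 ± 0.46) and Runx2, a bone transcription factor (3.10 ± 0.58). The loss was called in 3 of 11 endoderm factors, 5 of 11 epithelial and 6 of 15 smooth muscle genes, with list medians of -1.58, -1.77 and -1.20 against 0 called gains in each.

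**Figure D4:**
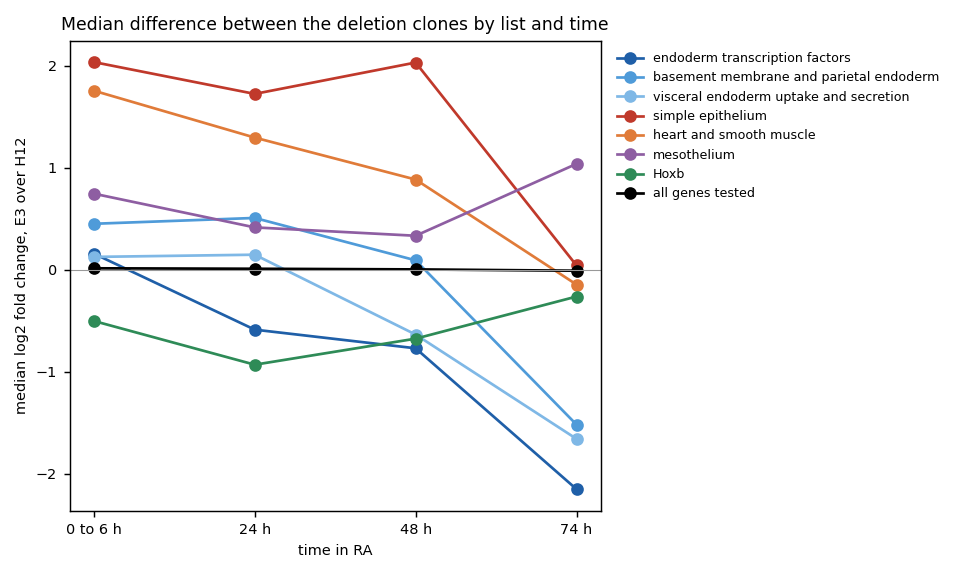
Median log2 fold change, E3 over H12, of each list at 0 to 6 h, 24 h, 48 h and 74 h of RA. Simple epithelium and smooth muscle begin near 2 and reach about 0 at 74 h, and endoderm factors go down to -2.15. Mesothelium stands at 1.04 at 74 h, Hoxb genes lie below 0 at 24, 48 and 74 h, and all genes tested stay near 0.

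Against 0 to 6 h, the difference at 24 to 74 h was lower in 1486 genes of 15783 (9.42%) and higher in 624 (3.95%). Early in RA, at 0 to 6 h, 3093 genes were higher in E3 than in H12 (19.6%) and 2483 lower (15.7%), or 35.3% together. At 0 h alone, with 2 libraries a clone, 1117 were higher (7.08%) and 503 lower (3.19%). Simple epithelium had 11 of 11 and smooth muscle 11 of 15 higher at 0 to 6 h, with medians of 2.04 and 1.76, and endoderm factors had 1 higher and 3 lower, with a median of 0.16. Of the 11 endoderm factors 7 lost ground from 0 to 6 h to 24 to 74 h, and of the 17 basement membrane genes 10.

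G4 libraries at the same times show where each deletion clone lay beside the wild type; both comparisons share those 6 libraries. E3 had 143 genes higher than G4 and 350 lower of 15469 (0.924% and 2.26%, or 3.19% together), and H12 had 1568 higher and 1439 lower (10.1% and 9.3%). None of the endoderm factors was called by edgeR in E3 against G4 (3 at an unadjusted p under 0.05), with a median log2 fold change of 0.23, and 7 were higher in H12 than in G4, with a median of 1.22. Basement membrane genes had no edgeR call in E3 (3 at an unadjusted p under 0.05) and 7 higher in H12. Visceral endoderm genes had none in E3 (2 at an unadjusted p under 0.05) and 7 higher in H12. Gata4 had 0.34 ± 0.34 in E3 over G4 and 2.44 ± 0.34 in H12 over G4, and Cubn -0.69 ± 0.36 and 2.61 ± 0.38. Simple epithelium had 1 gene higher in E3 and 2 lower in H12. Neuronal genes had 1 higher and 4 lower in E3 and 2 higher and 18 lower in H12, with medians of -0.65 and -0.95. Neural patterning genes had 1 higher and 10 lower in E3 and 17 lower in H12. Hoxb genes had 7 of 9 lower in E3, with a median of -0.78, and 1 lower in H12, with a median of -0.29. Plagl1 was lower in both, by -4.44 ± 0.21 in E3 and -2.67 ± 0.19 in H12. The 2-cell-like list had 12 genes higher in H12 than in G4, with a median of 0.92.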

How the data were processed

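Nuclear RNA was sequenced as paired reads after ribosomal depletion, per the labels' protocols. The submitters' processing notes name the tools STAR, DESeq2, Bowtie2 and SAMtools and the builds mm10 and dm6; versions and the counting program are not given in the sources used here. The deposited table holds a normalised signal per RefSeq transcript and library, made by the authors by dividing reads by a size factor. Every value times its factor lay within 0.1 read of a whole number, so whole reads were recovered (100% of values) and tested as counts. All 3732 sets of transcripts of equal span had equal signals, so reads cover introns.

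Of 29039 transcripts, 28958 were named by the file, 74 by accession and 7 not at all (0.00116% of reads). The transcript with most reads per gene was kept, and 19418 genes had reads. edgeR 4.0.16 (limma 3.58.1, statmod 1.5.0, R 4.3.3) gave robust quasi-likelihood tests with TMM scaling, filterByExpr and p-values adjusted by Benjamini and Hochberg's method across every gene tested, with terms for time and clone over 12 libraries. Single times used the same 12 libraries, comparisons with 0 to 6 h 28 and with G4 18. An approximate SE was had from each log2 fold change and its F statistic, as the size of the change over the root of F. On simulated reads, 77.3% of 2-fold and 99.0% of 4-fold changes between E3 and H12 were recovered with 14 false calls in 15132 genes.

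The comparison, the 40 lists and the tests were chosen with earlier results of these data known. Named genes are the 15 largest changes in each direction among called genes with non-overlapping libraries and at least 2 CPM, up to 4 called members per list, the measured Hoxb genes, and the 5 largest changes in each direction between 24 and 74 h; a few genes that this choice takes in are not reported here. Alternatives were RLE scaling, the authors' size factors, no filter, DESeq2 1.42.0, limma-trend, a replicate block, leaving out each library or whole chromosomes, a fit of 42 libraries, 1 mean per clone and time, and the longest transcript per gene. Between 4754092 and 10449145 reads per clone library fell in genes, and intervals and tests cover counting error and the spread between libraries only.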

Additional observations from a re-analysis of the deposited data

Results flagged for a closer look

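Each gene named here was picked out because the difference between E3 and H12 was not the same at all times, by a test of that change at an adjusted p under 0.05 in edgeR's quasi-likelihood test. Values are changes of the log2 fold change, E3 over H12, in genes named in the account above, for the change between 24 and 74 h and for that between 0 to 6 h and 24 to 74 h. A gene is said to lose ground in E3 where its log2 fold change went down and to gain where it went up. Fitted values of genes with few reads in a clone, such as Pga5, depend on the prior count.

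Between 24 and 74 h, E3 lost ground in the endoderm-list genes Foxq1 (-3.13), Sox7 (-2.93), Srgn (-2.61), Dpp4 (-2.24), Gata4 (-2.01), Cubn (-1.9959) and Pdgfra (-1.53). It also lost ground in genes described with the epithelial and smooth muscle lists, Acta2 (-4.13), Krt8 (-3.75), Tagln (-3.74), Cldn7 (-3.01), Cnn1 (-2.70), Krt19 (-2.70), Prss8 (-1.65) and Frem2 (-1.32). Losses elsewhere were Pga5 (-6.70), Clic5 (-5.01), Prlr (-4.75), Mir6367 (-4.72), Dcn (-4.57), Ihh (-3.45), Wnt7b (-2.70), Runx1 (-2.42), H19 (-2.18), L1td1 (-2.0042), Fgf10 (-2.0035), B4galnt2 (-1.96), Igf2 (-1.68) and Bmper (-1.49). Gains were Hoxb3 (1.35), Hoxb4 (1.40), Runx2 (3.10), Aldh1a2 (3.23), Robo3 (3.33) and Bnc1 (3.51), and each of these had a negative log2 fold change at 24 h.

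From 0 to 6 h to 24 to 74 h, E3 lost ground in the endoderm-list genes Gata4 (-2.43), Foxq1 (-2.25), Cubn (-2.22), Srgn (-1.88), Sox7 (-1.78), Pdgfra (-1.30), Pth1r (-0.70) and Dpp4 (-0.69). Among genes described with the epithelial and smooth muscle lists, the losses were Tagln (-3.04), Krt8 (-2.38), Acta2 (-2.07), Krt19 (-2.06), Frem2 (-0.77) and Grhl2 (-0.52). Among the other genes, losses of 2 or more on the log2 scale were 1010001N08Rik (-3.72), Runx1 (-3.38), Pga5 (-3.13), Olig3 (-2.78), Foxd3 (-2.41), Prlr (-2.37), Ebf1 (-2.25), Fbp2 (-2.14) and Nostrin (-2.04). Smaller losses were Bmper (-1.95), Cd109 (-1.69), Spry4 (-1.68), Clic5 (-1.68), Fndc3c1 (-1.65), Wnt3 (-1.54), L1td1 (-1.12), Etv5 (-1.08), B4galnt2 (-0.98), Sox11 (-0.95), Dnmt3l (-0.82), Fgf10 (-0.80), Dppa4 (-0.79), Klf5 (-0.76), Wnt7b (-0.68) and Wt1 (-0.63). Gains were Mcm6 (0.32), Ccnd1 (0.54), Gli1 (0.59), Bmp7 (0.79), Cdh3 (0.80), Phf19 (0.80), Vim (0.83), Hk1 (0.86), Pdgfrb (2.07), Cxcr4 (2.20), Upk3b (2.27) and Wnt6 (2.54).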

How the results depend on the processing

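The count of 1640 genes called over 24 to 74 h stayed within 1.5 times under RLE scaling (1657), the authors' size factors (1660), no filter (1610), limma-trend (1551), DESeq2 (2030), without chromosomes 7, 11 and 17 (1295) and with the longest transcript (1641); no named gene changed direction. Of 155 results on named genes, 11 lost their call with no filter, 9 with limma-trend, 6 in the 42-library fit and 50 with a replicate block. A fit of all 42 clone libraries called 3298 genes over the 3 times (1519 higher, 1779 lower), 1765 at 24 h, 2557 at 48 h, 1236 at 74 h and 720 for the change between 24 and 74 h. With 1 mean per clone and time 2288 genes were called, 1038 of them higher. With a replicate block the counts were 890 over the 3 times (356 higher, 534 lower), 545 at 24 h, 451 at 48 h, 376 at 74 h and 178 for the change between 24 and 74 h. The difference between replicates 1 and 2 in E3 and that in H12 correlated over genes at 0.15 at 24 h, -0.37 at 48 h and -0.25 at 74 h. Whether a replicate number marks libraries handled together was not tested. E3 against G4 had 753 calls with DESeq2 and 208 without chromosomes 7, 11 and 17, against 493. Leaving out single libraries gave 1118 to 1671 calls over the 3 times (399 to 677 higher, 696 to 994 lower), 335 to 1439 at 24 h, 294 to 3684 at 48 h, 173 to 1017 at 74 h, 148 to 682 for the change between 24 and 74 h, 1633 to 2660 for the change from 0 to 6 h, 273 to 605 for E3 against G4 and 2384 to 3315 for H12 against G4. The share of higher genes among calls was 41.0% and ranged from 35.7% to 43.1% when a library was left out, with 45.4% for 1 mean per clone and time and 46.1% in the 42-library fit. The cause of these shifts was not tested. Chromosome stretches and additional libraries left out were chosen after seeing the data.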
